A study of Mus musculus with 12 samples.

Results

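The regions described here are the N6-methyladenosine (m6A) peaks that the authors annotated as 5' UTR and whose 5' edge falls on the first base of the annotated gene, called start peaks below. They were taken from 2 deposited peak lists by position and annotation alone, with no measured value in the choice. The WT list held 1050 start peaks among 36682 peaks, and the KO list held 1146 among 41153, with 1 start peak per gene. The libraries came from BV2, an immortalised mouse microglial cell line, by MeRIP-seq, in which fragmented polyadenylated RNA is pulled down (IP) with an antibody against m6A and sequenced beside the unselected input. The labels give 12 libraries in 4 groups of 3: IP and input of wild-type cells (WT) and IP and input of cells with Mettl3 knocked out (KO), and the titles of all of them name bacterial lipopolysaccharide (LPS), with no dose or time. All groups therefore share the LPS label, and no unstimulated group was analysed here. Whether the knockout cells are 1 clone or a pool, and which part of Mettl3 was altered, is not given in the sources used here. Each list gives, per peak, the authors' log2 ratio of IP over input and an adjusted p-value; these values are the authors' own, with 1 value per genotype, so no spread between replicates is available and no test between genotypes was made. The intervals below are 95% intervals over peaks or genes (Wilson for shares, binomial order statistics for medians) and cover counting error only; genes are not replicates.

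Mettl3 encodes the catalytic subunit of the nuclear methyltransferase that writes m6A into pre-mRNA, mostly within the consensus called DRACH and mostly near stop codons and in 3' UTRs. The first transcribed base of a capped mRNA, when it is A, can carry a different mark, N6,2'-O-dimethyladenosine (m6Am), written by PCIF1 and not by METTL3. Antibodies against m6A also bind m6Am, and a fragment that ends at the cap can carry either mark, so a peak at a gene start cannot by itself tell m6A in the 5' UTR from m6Am at the cap. In bulk RNA a lower ratio likewise cannot tell fewer cells with the mark from less mark per cell.

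The identity of the cells was checked first, and the peaks of Mettl3 were read beside it. One protocol text speaks of neuroblastoma, whereas the labels name microglia: 13 of 14 microglia and macrophage markers had at least 1 peak in each list (P2ry12, a homeostatic microglial receptor, had none), and 0 of 12 neuroblastoma and sympathetic neuron markers had a peak in either. Mettl3 had 3' UTR peaks in both lists, the strongest at 1.57 (WT) and 2.07 (KO) on the log2 scale, and no start peak in either. A ratio of IP over input does not measure the amount of transcript, so these values do not check the knockout.

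The first bases of 9 start-peak genes are shown to let the annotated first base be read: 3 among the strongest WT start peaks, 2 with a much lower KO value, 2 with a higher KO value, and 2 genes of the LPS response. The transcription start used in these cells was not mapped, so the base at the cap itself is not known. Each line runs 5' to 3' on the strand of the gene, with 10 bases before the start and 20 from the start on, and the capital marks the first base of the gene. The sequences are from RefSeq (GRCm38.p6), printed where the gene start in the lists was the same base as the RefSeq start; the lists name no build.
Bhlha9, chr11:76672460-76672489, plus strand: agagtgtccaGccagcaagagccatcagtc
Pkp4, chr2:59160840-59160869, plus strand: ggctggcggcGgggcggcggcctctgagca
Tssk6, chr8:69902174-69902203, plus strand: gtagggccttGggagtgggcacatgggggc
Tob1, chr11:94211444-94211473, plus strand: gagcgaagctCtggcccggcgcgcagaggg
Map3k6, chr4:133240808-133240837, plus strand: ccttgagaagTctgggtgtagcacgctgcc
Gtpbp2, chr17:46161022-46161051, plus strand: cgtggcctacAgtgggccacaccccgctct
Rc3h2, chr2:37422884-37422913, minus strand: ggctgtccctGtagctcccgatggagtttg
Tnf, chr17:35201988-35202017, minus strand: acagccagccAgcagaagctccctcagcga
Ifit2, chr19:34550684-34550713, plus strand: tcccgcccttAgtgatgtggggacccagcg
The first base is A in Gtpbp2, Tnf and Ifit2, G in Bhlha9, Pkp4, Tssk6 and Rc3h2, C in Tob1 and T in Map3k6.

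Almost 1 in 4 5' UTR peaks began on the first base of the gene. Start peaks were 24.1% (22.8 to 25.4%) of 4359 WT 5' UTR peaks and 23.4% (22.3 to 24.7%) of 4887 KO 5' UTR peaks. They were found in 7.85% of the 13370 genes with a WT peak and in 8.79% of the 13031 genes with a KO peak. The position was far more populated than its neighbours: 553 WT and 605 KO 5' UTR peaks began 1 to 25 bases downstream, 270 and 293 began 26 to 50 bases downstream, and 50 and 49 began before the gene start. Peak edges lie partly on a grid, since 39.6% of the 1961 WT peaks that began elsewhere within 500 bases, and 39.5% of the 2215 KO peaks, began at an exact multiple of 25 bases from the gene start, so a peak called at the first base locates the signal only to about that step. That share was not split by strand. Examples on the plus strand began 25 (Batf), 50 (Rpl29) and 50 (Nos2) bases downstream. Minus-strand examples began 10 (Tab2), 12 (Rpl13a) and 45 (Tet3) bases downstream, so the exact rule may not treat both strands alike. The classes also differed by strand. Of the start peaks, 64.9% (WT) and 63.9% (KO) lay on the plus strand, beside 50.2% and 50.3% of all peaks. Other 5' UTR peaks gave 45.5% and 46.1%, and 3' UTR peaks reaching the gene end 38.8% and 38.9%. The classes compared below thus differ in more than position along the transcript, and the cause was not tested. Peaks of all annotations that began on a gene start numbered 1787 in WT and 1812 in KO; 58.8% and 63.2% of them were the 5' UTR peaks described here, and 505 and 470 lay in exons of noncoding RNAs.

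**Figure D1:**
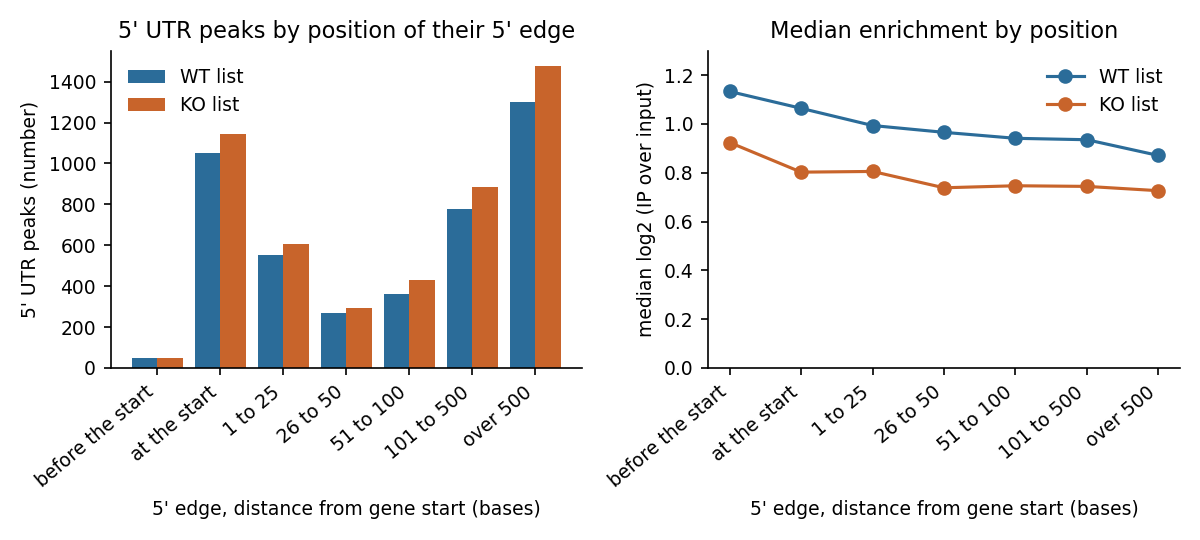
Left, number of 5' UTR peaks (bars, linear axis from 0) by the distance in bases of their 5' edge from the gene start, for the WT list (blue) and the KO list (orange). Right, median log2 of IP over input of the same peaks; the at-start class holds 1050 WT and 1146 KO peaks with medians of 1.06 and 0.80, and peaks beginning over 500 bases away have medians of 0.87 and 0.73.

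Batf, which encodes an AP-1 family transcription factor that the study singles out as a METTL3 target, lay just outside the rule. Its WT 5' UTR peak, at chr12:85686694-85689537 with a log2 of 1.88, began 25 bases after the gene start. The gene also had a WT 3' UTR peak at 2.92 and no peak of any class in the KO list. In the KO list, Mettl3 itself had a 5' UTR peak with a log2 of 0.69 that began 51 bases after its start.

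Start peaks were stronger in the median than the pool of other 5' UTR peaks, though the few peaks that began before the gene start had higher medians (1.13 in WT and 0.92 in KO) and KO peaks that began 1 to 25 bases downstream had almost the same (0.81). Their median log2 was 1.06 (1.03 to 1.12) in WT, with an interquartile range of 0.80 to 1.60, and 0.80 (0.78 to 0.83) in KO. The other 5' UTR peaks had medians of 0.92 in WT and 0.75 in KO, and 3' UTR peaks reaching the gene end had 0.95 and 0.89. The KO start median was thus below that of gene-end 3' UTR peaks, whereas the WT start median was above it. Peaks of at least 4-fold enrichment, a log2 of 2 or more, made up 14.95% (12.9 to 17.2%) of WT start peaks and 5.58% (4.40 to 7.07%) of KO start peaks, beside 11.7% of all WT peaks and 3.93% of all KO peaks. Of the 157 WT and 64 KO start peaks at that strength, 49 genes were common to both lists; 71 of the 108 WT-only genes and 5 of the 15 KO-only genes had a weaker start peak in the other list. At 16-fold or more there were 12 WT and 6 KO start peaks.

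The spans are stretches of genome that include introns, and many start peaks are therefore much longer than a 5' UTR. Spans ran from 100 to 322103 bases in WT and to 212426 in KO, with medians of 1165 and 1083. A total of 499 WT and 563 KO start peaks spanned at most 1000 bases. The shortest were also the weakest: among the 141 WT and 171 KO start peaks of at most 200 bases, the medians were 0.82 and 0.67 and 0 reached 4-fold. Among those over 5000 bases, 327 in WT and 360 in KO, the medians were 1.26 and 0.86, and 25.1% and 8.89% reached 4-fold. A log2 value is given for the whole peak, so a long start peak spliced over introns cannot be assigned to the cap rather than to later exons.

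The strongest WT start peak was that of Bhlha9, which encodes a basic helix-loop-helix transcription factor known from limb development. It covered the first 300 bases of the gene at a log2 of 6.77, and in the KO list the 5' UTR peak of Bhlha9 had a log2 of 4.05 and began 75 bases downstream. Pkp4, which encodes the armadillo-repeat junction protein plakophilin-4, was second in WT at 6.48 and had 4.90 in KO, over almost the same span of about 40 kilobases (39999 and 40024 bases). Fam110c followed at 5.93 in WT, with no KO peak of any kind. Rsrc1, an arginine- and serine-rich coiled-coil protein linked to splicing, had 5.36 in WT and 5.201 in KO over identical 4587-base spans. The remaining 6 of the 10 strongest WT start peaks lay between 4.14 and 4.86: Wdr66 (a WD-repeat protein of motile cilia), St3gal2 (a sialyltransferase), Cnnm3 (a member of the CNNM family of magnesium transport proteins), Treml2 (a TREM-like receptor of myeloid cells), Purg (a purine-rich element binding protein) and Tssk6 (a testis-specific serine kinase).

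The KO ranking was led by a different gene but shared much of its upper end with WT. Zfp609, a zinc-finger gene, had the strongest KO start peak at a log2 of 7.26, against 2.16 in WT. The KO peak spanned 29771 bases and the WT peak 127671, so the compared intervals differ more than 4 times in length. Of the 10 strongest in each list, Bhlha9 (WT) and Zfp609 (KO) had the highest of the authors' adjusted p-values. The order by log2 is thus not an order by strength of evidence. Rsrc1, Pkp4, Wdr66, Treml2 and Purg were in both lists of the 10 strongest, which had 5 genes in common. Wdr66 had 4.86 in WT and 4.30 in KO, Treml2 4.24 and 3.55, and Purg, for which the start peak was the only peak of the gene in both lists, 4.23 and 3.63. Osbpl10, an oxysterol-binding protein relative, had a KO start peak at 4.84 and no WT peak. Efcab9, a calcium-binding partner of the sperm CatSper channel, had 4.79 in KO and 3.74 in WT; Rai14, an ankyrin-repeat actin-binding protein, had 3.88 and 3.41; and Phf23, a PHD-finger protein, had 3.98 in KO and, in WT, a 3' UTR peak alone.

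Most start peaks had a counterpart in the other genotype, as did most peaks of either list. A peak on the same strand overlapped by at least 1 base for 902 of 1050 WT start peaks (85.9%, 83.7 to 87.9%) and for 925 of 1146 KO start peaks (80.7%, 78.3 to 82.9%). Over all peaks these shares were 77.15% and 72.9%. For the other 5' UTR peaks they were 75.04% and 70.7%, and for 3' UTR peaks reaching the gene end 96.1% and 93.2%. Unshared start peaks were weaker, with medians of 0.91 in WT and 0.64 in KO against 1.11 and 0.85 for shared ones. Of the start peaks at 4-fold or more, 143 of 157 in WT (91.1%) and 61 of 64 in KO (95.3%) were overlapped. All peaks at that strength gave 83.75% and 91.5%.

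The same gene had a start peak in both lists in 696 cases, which is 66.3% of the WT start peaks, 60.7% of the KO start peaks and 46.4% of the 1500 genes with one in either. Among the 354 WT start-peak genes without one in KO, 177 had another 5' UTR peak in KO, whose edge lay a median of 75 bases from the start and within 100 bases in 102 genes. A further 47 were overlapped by a KO peak of another annotation, 115 had KO peaks elsewhere in the gene, and 15 had no KO peak. Among the 450 KO start-peak genes without one in WT, the corresponding counts were 160 (edge a median of 40.5 bases away, within 100 bases in 118), 86, 196 and 8. The groups were filled in that order, so a gene with another 5' UTR peak, overlapping or not, was not counted further. Among WT start-peak genes that first group was the largest. Among KO start-peak genes the largest was the group with WT peaks elsewhere in the gene and no overlap.

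In genes with a start peak in both lists, the KO value was usually the lower one, by a small amount. The median KO minus WT difference over the 696 genes was -0.18 (-0.21 to -0.15) on the log2 scale, with an interquartile range of -0.47 to -0.01. The value was lower in KO in 535 genes, 76.9% (73.6 to 79.8%), and higher in 161. The background was alike: of all 12323 genes with a peak in both lists, taken by their strongest peak, 73.4% had the lower value in KO (median difference -0.25). Because the whole list is shifted, the direction of the start-peak median depends on the reference: relative to that median of all genes it was 0.063 higher rather than lower, and 41.1% of the genes were then lower. The same turn applies to every median difference below that is smaller in size than that of all genes. That reference takes each gene's strongest peak of any class and is not matched for peak strength. In the strength bins defined below, start peaks had a median of -0.10 under 0.75, and all genes -0.009. From 0.75 to 1 these medians were -0.16 and -0.05, and from 1 to 1.5 both were -0.25. From 1.5 to 2 they were -0.46 and -0.63, and at 2 or more -0.56 and -0.81. Start peaks thus fell more than all genes in the weak bins and less in the strong ones. Each list also carries its own pull-down efficiency, whose part in the shift was not tested.

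The KO value of the start peak was lower by 1 or more in 35 genes (5.03%), where all genes gave 9.54% by their strongest peak, other 5' UTR peaks 5.91%, gene-end 3' UTR peaks 5.19% and coding-exon peaks 3.31%. It was higher by 1 or more in 4 genes (0.575%), where all genes gave 0.714%. In the 150 genes whose start peak had identical coordinates in both lists the median was -0.12, and 71.3% were lower. In the 276 with both spans at most 1000 bases it was -0.17 and 77.2% were lower. The other 5' UTR peaks gave a median of -0.15 over 1997 genes, and 3' UTR peaks reaching the gene end -0.07 over 5318.

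**Figure D2:**
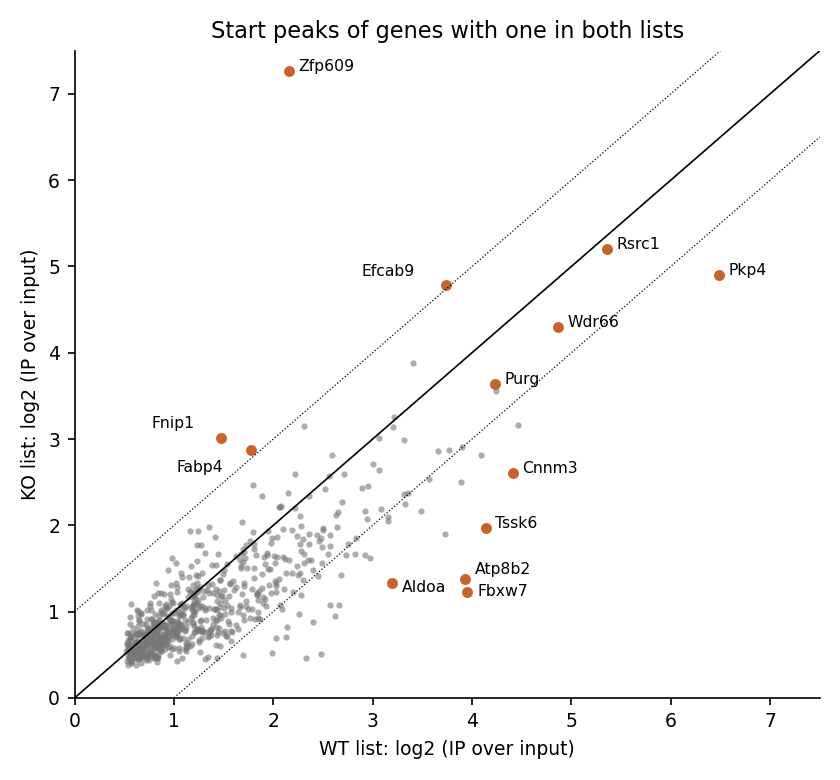
Each point is 1 of the 696 genes with a start peak in both lists, by the authors' log2 of IP over input in the WT list (x axis) and the KO list (y axis). The solid line marks equal values and the dotted lines a difference of 1. Labelled genes are in orange. At or beyond the lower dotted line lie 35 genes, and 4 lie at or beyond the upper one, with Zfp609 farthest above.

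The 10 most negative differences include an E3 ligase receptor, a flippase and a glycolytic enzyme. Fbxw7, the substrate receptor of an SCF ubiquitin ligase, had 3.95 (WT) and 1.23 (KO), a difference of -2.72, over spans of 110386 and 48744 bases. In KO, Fbxw7 also had a stronger 5' UTR peak at 3.10 that began 48919 bases downstream, so part of the WT interval was called as a separate peak there. Atp8b2, a phospholipid flippase, had 3.93 and 1.38 (-2.55) over 286 and 3006 bases. Tob1, an antiproliferative protein that recruits the CCR4-NOT deadenylase, had 2.47 and 0.51 (-1.96) over 3179 and 225 bases, with a separate KO 5' UTR peak at 1.72 that began 250 bases downstream. In these 3 genes the interval compared was not the same in the 2 lists.

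Others differed over the same or nearly the same interval. Aldoa, the glycolytic enzyme aldolase A, had 3.19 in WT and 1.33 in KO (-1.86) over the same 734 bases, while its strongest 3' UTR peak had 0.73 and 0.52. Cnnm3 had 4.41 and 2.61 (-1.80) over the same 6865 bases. Tssk6 had 4.14 and 1.97 (-2.16) over 300 and 350 bases. Ndrg1, a stress- and hypoxia-responsive gene, had 2.32 and 0.46 (-1.86) over 1859 and 1884 bases, and Naa30, the catalytic subunit of the NatC acetyltransferase, had 3.73 and 1.90 (-1.83) over 6473 and 6448. Map3k6, a MAP kinase kinase kinase, had 2.62 and 0.94 (-1.67) and Tmem64, a transmembrane protein, 2.66 and 1.07 (-1.59), both over shorter KO spans. Of the 10 genes, 2 had identical coordinates, 5 had spans within 50 bases of each other and 5 differed by over 1.5 times in span.

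Higher KO values were led by Zfp609 (+5.11 over unequal spans, as above), which also had a separate KO 5' UTR peak at 1.50. Fnip1, a partner of folliculin in mTORC1 and AMPK signalling, had 1.47 in WT and 3.01 in KO, a difference of 1.54 over the same 26521 bases. Fabp4, a fatty acid binding protein of adipocytes and macrophages, had 1.78 and 2.87 (1.09) over 339 and 314 bases. Efcab9 was the fourth gene above 1, with a difference of 1.05. The other 6 of the 10 ranged from 0.62 to 0.85: Six5, a homeobox factor, had 2.31 and 3.15; Fam193b 1.16 and 1.93; Gtpbp2, a GTPase linked to ribosome rescue, 1.24 and 1.93; Rc3h2, the RNA-binding protein roquin-2, 1.80 and 2.47 over the same 6044 bases; Myo19, a mitochondrial myosin, 0.98 and 1.61; and Ndufb4, a complex I subunit, 1.35 and 1.98 over the same 466 bases. Of these 10 genes, 3 had identical coordinates, 5 had spans within 50 bases of each other and 5 differed by over 1.5 times in span.

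The difference grew with peak strength at gene starts, but less than at gene ends. Genes were binned by the mean of their WT and KO values. Below a mean of 0.75 the median difference of start peaks was -0.10 (175 genes), and at a mean of 2 or more it was -0.56 (-0.75 to -0.46; 84 genes). For 3' UTR peaks reaching the gene end these medians were 0.01 and -0.92 (-0.96 to -0.88). Between 1.5 and 2 the start median was -0.46 (83 genes) and the gene-end median -0.64. The intervals of the strongest bin do not overlap. The other 5' UTR peaks resembled start peaks, with -0.09 in the weakest bin and -0.60 in the strongest. The bins use the same values as the differences, so the slope is a description of these lists.

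**Figure D3:**
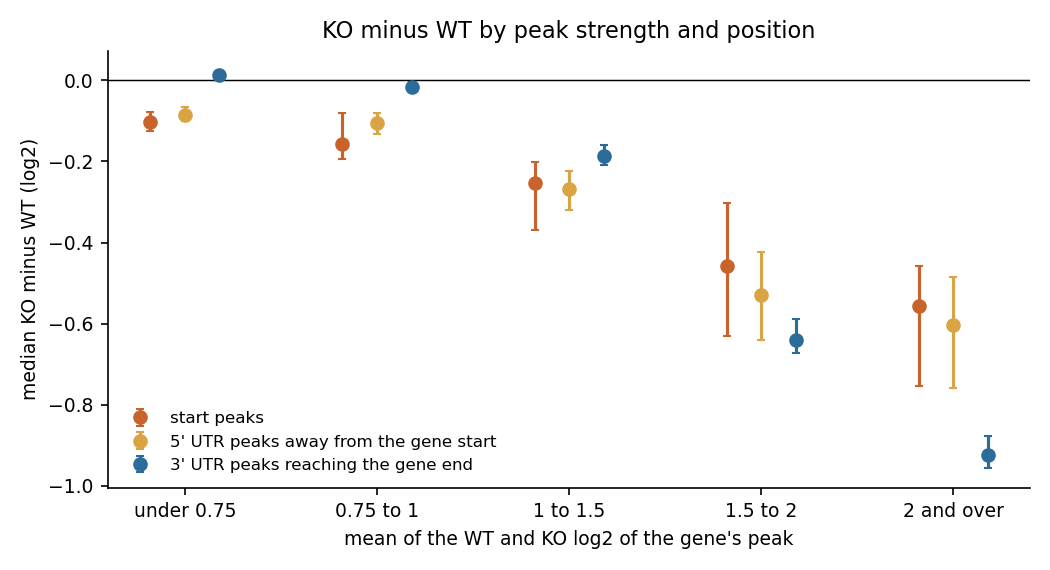
Median KO minus WT difference in log2 of IP over input (y axis) in 5 bins of the mean log2 of the gene's peak (x axis), for start peaks (orange), other 5' UTR peaks (yellow) and 3' UTR peaks reaching the gene end (blue); bars are 95% order-statistic intervals over genes. In the strongest bin the median of start peaks is -0.56 and that of gene-end 3' UTR peaks is -0.92.

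Genes with a start peak in a single list and no peak of any class in the other were few, 15 in WT (1.43%) and 8 in KO (0.698%). Of all 13370 genes with a WT peak and 13031 with a KO peak, 12323 had a peak in both lists. The lists give no transcript amount or depth, so why a gene has no peak was not tested. The 5 strongest in WT were Fam110c, Zfp663 at 3.99, Gpr4 (a proton-sensing receptor) at 3.56, Il17d (a cytokine of the IL-17 family) at 3.13 and Ccdc17 at 2.60. In KO, Osbpl10 at 4.84 stood far above the next, Lurap1 at 0.92, Pgam2 (a muscle phosphoglycerate mutase) at 0.77, Rras (a small GTPase) at 0.77 and Mettl23 (a methyltransferase-like protein) at 0.74. Over all 15 WT genes the median was 1.54, and over all 8 KO genes 0.75; the weakest start peaks called had 0.50 and 0.37.

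Start peaks rarely stood alone. Another peak was listed for 1020 of 1050 WT genes (97.1%) and for 1130 of 1146 KO genes (98.6%), and the median number of peaks per gene was 3 and 4, against 2 and 3 over all genes with a peak. These numbers include the start peak, and a gene with more peaks is more likely to hold one. Part of the excess therefore follows from the choice, and genes with other 5' UTR peaks were not counted this way. A 3' UTR peak was present in 95.4% (94.0 to 96.5%) of WT and 97.8% (96.8 to 98.5%) of KO start-peak genes, beside 79.8% and 81.4% of all genes with a peak. The latter include 2158 WT and 1955 KO genes with a peak in a noncoding RNA exon. Start-peak genes have an annotated 5' UTR by the rule, so the sets are not alike in kind. The start peak was the strongest peak of its gene in 470 WT genes (44.8%) and 406 KO genes (35.4%). It was stronger than the strongest 3' UTR peak in 464 of 1002 WT genes (46.3%) and 416 of 1121 KO genes (37.1%), and the median difference between them was -0.04 (-0.11 to -0.01) in WT and -0.15 (-0.19 to -0.12) in KO. The WT sign turned when peaks were limited to 1000 bases (0.15) or when the mean over a gene's peaks was used (0.073).

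The median difference between genotypes was about the same at both ends of these genes, which does not show that the ends of a single gene moved alike. In the 667 genes with a start peak and a 3' UTR peak in both lists, the median KO minus WT difference was -0.18 at the start (-0.21 to -0.15) and -0.18 at the strongest 3' UTR peak (-0.24 to -0.15). The start difference was the more negative in 322 genes (48.3%, 44.5 to 52.1%). Both ends were lower in KO in 383 genes, the start alone in 129, the 3' UTR alone in 108, and neither in 47.

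The share of start-peak genes beginning with A was not above that of all genes with a peak. The annotated start base could be read for the 279 WT (26.6%) and 323 KO (28.2%) start-peak genes whose deposited start was a RefSeq start. It need not be the base at the cap in these cells. A came first in 78 WT genes (28.0%, 23.0 to 33.5%) and 84 KO genes (26.01%, 21.5 to 31.0%), beside 29.3% and 28.8% of all genes with a peak read the same way. G came first in 53.0% and 53.9% of start-peak genes, and in 48.8% and 49.5% of all genes with a peak. Of all 32817 RefSeq starts, 34.4% begin with A and 35.6% with G. Among short start peaks, where the signal lies closest to the annotated start, A came first in 34.3% (26.8 to 42.7%) of WT and 27.4% (21.2 to 34.7%) of KO genes, intervals that include the share of all genes. A CA dinucleotide across the start was present in 19% and 18.3%, beside 20.5% and 20.3% of all genes with a peak.

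Peaks of genes beginning with A and with other bases overlapped in strength. In WT the median log2 was 1.04 (0.92 to 1.24) for 78 genes beginning with A and 1.24 (1.05 to 1.28) for 201 beginning with another base. In KO the medians were 0.83 (0.75 to 1.01; 84 genes) and 0.81 (0.77 to 0.89; 239 genes). The KO minus WT difference was -0.26 (-0.44 to -0.11) in 50 genes beginning with A and -0.23 (-0.28 to -0.17) in 145 others. These intervals overlap, which does not show that the groups are alike. Examples of genes beginning with A are Gtpbp2, with a higher KO value, and Atf5, with a lower one (1.51 and 1.14).

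DRACH, the sequence context of METTL3, was sought in the first 50 bases of the gene. Its 18 words have any base but C, then A or G, then AC, then any base but G. It was present in 41.6% (35.9 to 47.4%) of WT and 40.9% (35.6 to 46.3%) of KO start-peak genes, and in 42.8% and 42.6% of all genes with a peak. The same words on the opposite strand were present in 45.2% and 45.8%. All 32817 RefSeq starts had the motif in 54.4%, at a median GC content of 56% against 66% for start-peak genes. GGACT alone, one of the 18 words, was present in 4.66% and 4.33%. Among genes read in both lists, the median KO minus WT difference was -0.30 (-0.47 to -0.24) in 71 genes with the motif and -0.19 (-0.25 to -0.13) in 124 without, intervals that overlap slightly. Of the genes printed above, Bhlha9, Map3k6, Rc3h2, Tnf and Ifit2 carry it; the first 50 genomic bases can run past the first exon, and a match is not a methylated site.

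The 18 gene lists held 543 distinct genes, of which 42 of 503 with a WT peak (8.35%) and 58 of 500 with a KO peak (11.6%) had a start peak, beside 7.85% and 8.79% of all genes with a peak. Those shares of all genes also count genes with peaks in noncoding RNA exons, so the sets are not matched. In the 27 list genes with both, 21 were lower in KO and 6 higher, with a median of -0.16 that became 0.085 relative to the median of all genes. The intervals compared were not always the same: Edc3 spanned 7571 bases in WT and 31482 in KO, Eif3b 300 and 7167, and Irf3 2955 and 400. Others were equal, such as Bag3 with 125 bases in both. The direction of these named genes turns with that reference: Rsrc1, Edc4, Bag3, Edem1, Eef1g, Irf3, Stat2, Oasl1, Mafk, Maff and Spi1. The reference is not matched for peak strength, and these genes were not compared with all genes of like strength.

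The lists of the m6A machinery are small. Start-peak counts of these and of all lists below are to be read against the 7.85% (WT) and 8.79% (KO) of all genes with a peak. Of 12 writer genes, 0 had one in WT and 1 in KO: Rbm15, an RNA-binding subunit of the writer complex, with a KO start peak at 2.05 and a WT 5' UTR peak at 3.10 that began 248 bases downstream. Neither of the 2 erasers had one. Of 14 reader genes with a peak, 2 (14.3%) had a start peak in each list: Elavl1 (HuR, which stabilises AU-rich mRNAs) with 1.05 in WT and 0.68 in KO, and Ythdf3, a cytoplasmic m6A-binding protein, with 0.74 and 0.81. Of 22 cap enzymes and cap-binding proteins, start peaks were listed for 2 in WT (9.09%) and 3 in KO (13.6%). All were decapping factors: Edc3 (0.73 and 0.80), Edc4 (0.65 and 0.61) and Dcp1b (0.72, KO only). Pcif1, the m6Am writer, had a peak in each list but no start peak in either.

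Translation genes were divided. Among cytosolic ribosomal protein genes, whose mRNAs begin with a pyrimidine tract, no gene had a start peak in both lists. In WT, 1 of 76 genes with a peak (1.32%) had one (Rpl29, 0.85). In KO, 4 of 77 (5.2%) had one (Rpl13a 0.85, Rpl12 0.73, Rpl15 0.67 and Rps25 0.66). Rpl29 also had a KO 5' UTR peak, at 0.78, that began 50 bases downstream. For Rpl13a a WT 5' UTR peak, at 0.82, began 12 bases downstream. Among 46 translation factors, 5 had a start peak in WT (10.9%) and 8 in KO (17.4%), beside 7.85% and 8.79% of all genes with a peak. Of the 5 with both, 4 had the lower value in KO (median difference -0.19), as did 76.9% of all genes with both. Eif2s1, the alpha subunit of eIF2 that is phosphorylated in the integrated stress response, had 2.13 in WT and 0.71 in KO. This difference of -1.42 was the largest in these lists, but over unequal spans of 550 and 175 bases. Eif3b had 0.90 and 0.65, Eef1g 0.84 and 0.65, and Eif2b3 0.82 and 0.84.

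Some stress genes are known for m6A in the 5' UTR. Of 21 genes of the integrated stress and unfolded protein responses, 4 had a start peak in WT (19.05%) and 3 in KO (14.3%), where all genes with a peak gave 7.85% and 8.79%. Atf5, a stress-induced transcription factor, had 1.51 and 1.14, Ddit3 (CHOP) 1.03 and 1.29, Edem1, an ER degradation factor, 0.83 and 0.75, and Eif2ak2 (PKR) 0.82 in WT only. Eif2ak2 also had a KO 5' UTR peak, at 0.72, that began 4129 bases downstream. Of the heat-shock proteins and chaperonins, 1 of 33 genes had a start peak in WT (3.03%) and 4 of 34 in KO (11.8%). Bag3, a co-chaperone, had 0.71 and 0.61, and Dnajb1 (0.84), Tcp1 (0.78) and Hsph1 (0.47) had one in KO only.

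Start peaks of TLR4 pathway genes and LPS-induced mediators were mostly listed in one genotype, as they were for most genes, since 46.4% of genes with a start peak in either list had it in both. In the TLR4 and NF-kB pathway, start peaks were listed for 5 of 35 genes in WT (14.3%) and 2 of 34 in KO (5.88%). All genes with a peak gave 7.85% and 8.79%. Nfkb2, which encodes the p100 precursor, was the single gene with both, at 1.36 and 0.76. Tnip1, an inhibitor of NF-kB signalling, had 1.86 in WT only, the adaptor Ticam1 (TRIF) 0.99, Rel 0.71 and Irak2 0.61. Tnip1 also had a KO 5' UTR peak, at 0.56, that began 6993 bases downstream. Tab2, an adaptor of TAK1, had a KO start peak at 3.13, while its WT 5' UTR peak of 3.26 began 10 bases downstream and so was not a start peak. Among LPS-induced cytokines and mediators, 3 of 24 (12.5%) had one in WT (Cxcl2 0.79, Nos2 0.66, Il1a 0.53). In KO, 3 of 21 (14.3%) had one (Osm 0.87, Tnf 0.76, Acod1 0.41), and none had one in both. All 6 start peaks lay between 0.41 and 0.87. Nos2 also had a KO 5' UTR peak, at 1.05, that began 50 bases downstream.

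Interferon-response genes had start peaks in 4 of 33 genes in WT and 7 of 32 in KO. All 4 interferon-response genes with both had the lower value in KO (median difference -0.14): Irf2 (1.45 and 0.96), Irf3, the kinase-activated factor of the type I interferon response (0.99 and 0.82), Stat2 (0.86 and 0.83) and Oasl1 (0.68 and 0.58). Relative to the median of all genes, which is not matched for peak strength, Irf3, Stat2, Oasl1 and the list median are no longer lower. Ifit2 (0.65), Xaf1 (0.51) and Usp18 (0.47) had one in KO only. Among AP-1, BATF and immediate-early factors, 3 of 25 genes had a start peak in WT (12%) and 4 of 24 in KO (16.7%). The small Maf proteins Mafk (2.04 and 1.86) and Maff (0.95 and 0.91) and the Fos-related Fosl2 (1.28 and 0.79) had both, and Jund had 0.80 in KO only.

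Chromatin and transcription regulators held the 3 highest WT start peaks of all list members. Of 48 genes, 7 had one in WT (14.6%) and 7 in KO (14.6%), 3 of them in both. All genes with a peak gave 7.85% and 8.79%. Tet3, a 5-methylcytosine dioxygenase, had 3.99 in WT, and its KO 5' UTR peak of 3.07 began 45 bases downstream. The acetyltransferase Ep300 had 3.08 and 2.19, the acetyltransferase Kat6a 2.48 in WT only, and the H3K36 methyltransferase Setd2 1.79 in WT only. Kat6a also had a KO 5' UTR peak, at 1.76, that began 1984 bases downstream. The deacetylase Hdac1 had 1.26 and 1.29 and the demethylase Kdm5a 1.07 and 0.81, whereas the H3K4 methyltransferase Kmt2a had 1.26 in KO only.

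The remaining lists gave few members. Of 34 cell cycle genes, 2 had a start peak in WT (5.88%) and 3 in KO (8.82%): E2f2 (2.36 and 1.90), Mki67 (1.14 and 1.26) and Cdk4 (0.59, KO only). Nuclear genes of the respiratory chain and ATP synthase had 1 of 58 in WT (1.72%; Ndufs6, 0.52) and 5 of 58 in KO (8.62%; 0.47 to 0.74), with Atp5b the highest and Cox7b at 0.68. Among those 5, Ndufb7 and Ndufb10 had WT 5' UTR peaks that began 25 and 42 bases downstream. Among iron genes known for 5' UTR elements, and their partners, Fth1, the ferritin heavy chain whose mRNA carries an iron-responsive element near the cap, had 1.40 in WT only, and Epas1 0.54 in KO only. Spi1, which encodes the myeloid factor PU.1, was the single microglia and macrophage marker with a start peak, at 1.33 and 1.26.

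**Figure D4:**
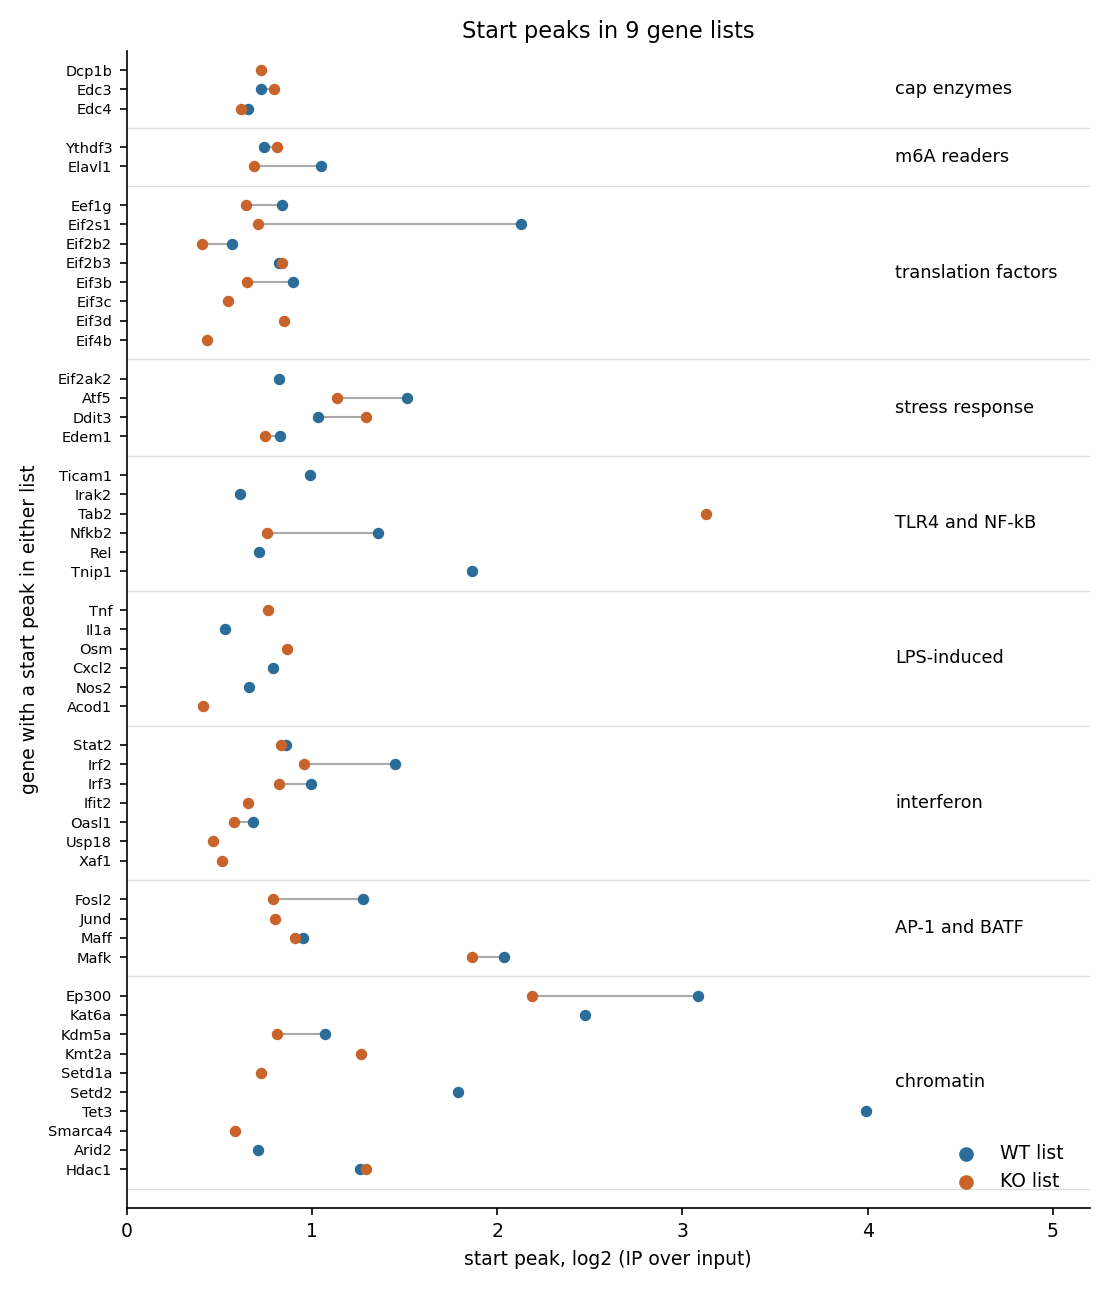
Start-peak log2 of IP over input (x axis) of members of 9 gene lists (labels on the right, genes on the y axis), with the WT list in blue, the KO list in orange and a grey line joining genes with both. Genes with a single point have a start peak in 1 list alone; Tet3 at 3.99 in WT is the highest value shown, and Eif2s1 has the longest line, from 2.13 in WT to 0.71 in KO.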

How the data were processed

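MeRIP-seq peaks of LPS-treated BV2 cells were used as 2 deposited lists, 1 for each genotype. A row holds, per the file headers, the position, annotation and gene of a peak, its log2 enrichment in IP relative to input, and the deposited p-value before and after adjustment. Tools named in the submitters' processing notes are HISAT2, StringTie, HOMER, fastp, FastQC and edgeR, without version or role. Which program called the peaks, on which build, and whether replicates were pooled is not given in the sources used here. Depth per library is unknown here. Deposited starts count from 0 and are printed counting from 1.

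A start peak is a 5' UTR peak whose 5' edge is the gene start in the list; the highest adjusted p was 0.0442 in WT and 0.0493 in KO. Overlap was computed with bedtools 2.31.1 (at least 1 base, same strand), and shares, medians and 95% intervals with Python 3.11.15, pandas 2.3.3 and SciPy 1.17.1. A gene's value is its strongest peak of a class. All values are described without a test. The counting was tested on simulated lists. Start bases came from RefSeq start windows (GRCm38.p6), where the deposited gene start equals the RefSeq start.

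The named genes are the 10 strongest start peaks per list, the 10 largest falls and rises between lists, the 5 strongest per list whose gene has no peak in the other, up to 4 members of each gene list by mean value, all writers, erasers and cap genes with a start peak, and Batf and Mettl3. Further list members (such as Rel, Irak2, Xaf1 and Ndufs6) were named after their values were seen. The members and the lists were chosen with earlier results of these data known. Some items that the rule or a list takes are not reported here. Alternatives covered the adjusted p, peak strength and span, edge tolerance, overlap rule, value per gene, identical coordinates, centring, reference-start tolerance and motif window.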

Additional observations from a re-analysis of the deposited data

How the results depend on the processing

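No paired analysis was possible because the lists hold 1 value per genotype with no replicate numbers; for the same reason no replicate could be left out. Values are WT, then KO. With an adjusted p of at most 0.001, start peaks were 27.0% and 26.4% of 5' UTR peaks, with medians of 1.12 and 0.84; 81.3% of WT start peaks were shared, and 96.6% of KO start-peak genes had a 3' UTR peak. Among peaks of at least 4-fold, 157 and 64 start peaks were left, 30.2% and 27.6% of 5' UTR peaks; 36.9% and 85.9% were shared with such peaks, A came first in 19.6% and 18.8%, and DRACH stood in 31.2% of KO starts. Among peaks of at most 1000 bases, 499 and 563 start peaks were 25.8% and 25.0% of 5' UTR peaks, with medians of 0.98 and 0.77; 8.22% and 2.31% were at 4-fold, 68.5% and 60.9% were shared, 71.7% and 73.2% of genes had a 3' UTR peak, and the median of start minus 3' UTR was 0.15 and -0.060. A came first in 34.3% of WT starts, 21 and 35 list genes had a start peak, and of 276 genes with both, 7 were lower and 1 was higher by 1 or more.

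A tolerance of 25 bases gave 1612 and 1758 start peaks (37.0% and 36.0% of 5' UTR peaks), 78 and 91 list genes, and 1072 genes with both, with a median of -0.15 and 73.4% lower. A tolerance of 100 bases gave 2250 and 2486 (51.6% and 50.9%), a WT median of 1.02 with 12.7% at 4-fold, 81.0% and 74.9% shared, 110 and 134 list genes, and 1549 genes with both, with a median of -0.15 and 77 lower by 1 or more. Requiring 50% of both peaks gave 66.2% and 61.5% shared, and requiring a start peak as partner 66.3% and 60.7%. Averaging the peaks of a gene, start minus 3' UTR was 0.073 and -0.033. Identical coordinates left 150 genes, with a median of -0.12, 71.3% lower, 8 lower and 1 higher by 1 or more. DRACH in the first 25 bases stood in 21.2% and 20.4%. Relative to the median of all genes, the start median was 0.063 with 41.1% lower, the list median 0.085, and the differences that turned were Rsrc1 0.090, Edc4 0.21, Bag3 0.15, Edem1 0.17, Irf3 0.074, Stat2 0.22, Mafk 0.074, Maff 0.20 and Spi1 0.17, with Eef1g (0.054) and Oasl1 (0.14) among the other genes named. The median of all genes is not matched for peak strength. Ignoring strand and a 5-base tolerance of the reference start moved none of the shares they were run on beyond their intervals. The causes of these shifts were not tested, except that stricter limits leave fewer peaks to compare. Without depth or replicate values, the error of a single log2 value is unknown.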
